A study of Mus musculus with 12 samples.

Results

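Acute-phase genes encode secreted proteins whose levels shift during inflammation. The 10 described here are Saa1, Saa2, Saa3, Saa4, Lcn2, Hp, Orm1, Cp, Lbp and Ptx3, taken by name with every probe set the array annotation pairs with them alone. All 10 were measured, with 21 of 34958 such probe sets, among 18194 genes in all. RNA came from whole lungs of C57BL/6 mice that had received bleomycin or saline by the endotracheal route, and the lungs were perfused with PBS and taken at day 21. The arrays fall into 4 groups of 3: FIZZ2 knockout after bleomycin, FIZZ2 knockout after saline, wild type after bleomycin and wild type after saline. Bleomycin injures the lung and is widely used in mice as a model of pulmonary fibrosis. FIZZ2, also called RELM-beta and encoded by Retnlb, is a secreted protein of the resistin-like family. The labels say neither how the knockout was made, nor which cells it affects, nor whether each replicate was a different mouse. The p-values below therefore measure the spread between these samples.

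In the classical acute-phase response, cytokines such as interleukin 6 and interleukin 1 act on hepatocytes through STAT3, C/EBP and NF-kB factors, and the liver releases these proteins into plasma. Several members are also made outside the liver, and in the lung Saa3, Lcn2 and Ptx3 are known products of macrophages, epithelial cells or stromal cells. The serum amyloid A proteins bind lipids and lipoproteins, while Lcn2, Cp and Hp handle iron, copper or haemoglobin. Lbp and Ptx3 recognise microbial products.

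Every value is an RMA log2 intensity, and a difference of 1 is a doubling of signal. Array medians lay between 5.58 and 5.68, and arrays of 1 group correlated at 0.988 to 0.997 over all probe sets. A probe set's intensity depends on its own probes, so levels were not compared between genes. The Retnlb probe set was dim in every group, with 3.63 ± 0.12 in knockout bleomycin lungs, 3.69 ± 0.14 in knockout saline lungs, 3.97 ± 0.17 in wild-type bleomycin lungs and 3.69 ± 0.14 in wild-type saline lungs (SD, n = 3 each). It was 0.35 log2 lower in knockout than in wild-type lungs after bleomycin (limma adjusted p = 0.0502), and at this level it gives only a weak check of the genotype labels. A gene is called higher or lower where limma's adjusted p over all 18194 genes was under 0.05.

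RefSeq promoter windows of GRCm38.p6 were found for 7 of the 10 members, and Hp, Orm1 and Lbp had none in that table. The 250 bases before the start were searched on both strands for an NF-kB-type motif (GGGNNNNNCC), a C/EBP-type motif (TTNNGNAA) and a STAT-type motif (TTCNNNGAA), which 45.8%, 36.8% and 7.01% of 32817 promoters hold. The windows of Saa3, Saa1, Saa2, Lcn2 and Ptx3 are printed with matches in capitals, because Saa3, Lcn2 and Ptx3 changed on these arrays and Saa1 and Saa2 are the close relatives of Saa3. They lie at chr7:46715677-46715926 on the minus strand for Saa3, chr7:46742981-46743230 on the minus strand for Saa1, chr7:46751583-46751832 on the plus strand for Saa2, chr2:32387740-32387989 on the minus strand for Lcn2 and chr3:66219637-66219886 on the plus strand for Ptx3.
Saa3: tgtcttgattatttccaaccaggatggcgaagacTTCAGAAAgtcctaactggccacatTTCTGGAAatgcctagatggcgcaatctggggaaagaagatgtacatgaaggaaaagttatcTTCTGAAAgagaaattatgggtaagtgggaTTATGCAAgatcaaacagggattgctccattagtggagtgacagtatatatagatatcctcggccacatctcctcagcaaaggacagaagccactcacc
Saa1: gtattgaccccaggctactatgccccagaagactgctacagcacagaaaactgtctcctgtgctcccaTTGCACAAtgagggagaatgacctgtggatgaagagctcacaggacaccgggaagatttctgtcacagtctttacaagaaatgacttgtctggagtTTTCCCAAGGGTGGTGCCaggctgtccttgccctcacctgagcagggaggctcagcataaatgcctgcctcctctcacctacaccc
Saa2: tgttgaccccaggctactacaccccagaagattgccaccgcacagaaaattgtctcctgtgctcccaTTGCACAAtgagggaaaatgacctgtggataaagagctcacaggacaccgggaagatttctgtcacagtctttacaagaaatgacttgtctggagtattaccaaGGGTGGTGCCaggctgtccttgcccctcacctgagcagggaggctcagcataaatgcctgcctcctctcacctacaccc
Lcn2: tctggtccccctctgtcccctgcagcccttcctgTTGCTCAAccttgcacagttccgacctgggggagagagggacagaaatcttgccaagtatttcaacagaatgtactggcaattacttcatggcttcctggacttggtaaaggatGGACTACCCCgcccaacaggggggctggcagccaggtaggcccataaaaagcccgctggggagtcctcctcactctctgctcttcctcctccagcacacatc
Ptx3: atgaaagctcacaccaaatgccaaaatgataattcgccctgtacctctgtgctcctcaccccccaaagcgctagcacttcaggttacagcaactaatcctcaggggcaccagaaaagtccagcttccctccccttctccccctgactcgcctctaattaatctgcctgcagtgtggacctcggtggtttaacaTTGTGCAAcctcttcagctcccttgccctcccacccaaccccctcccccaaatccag

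Saa3 has 4 matches to the C/EBP-type letters, which start 216, 191, 129 and 99 bases before the transcription start, and no match to the NF-kB-type letters. Saa1 has 2 C/EBP-type matches and 1 NF-kB-type match, and the nearer C/EBP-type match adjoins the NF-kB-type match, so the 2 form 1 run of capitals. Saa2 keeps the same NF-kB-type letters and 1 C/EBP-type match. Lcn2 has 1 match of each kind, and Ptx3 has 1 C/EBP-type match. None of the 8 windows of the 7 members holds the STAT-type letters. When aligned, the Saa1 and Saa2 windows were 94.8% identical, while every other pair among Saa1, Saa2, Saa3 and Saa4 lay between 46.8% and 52.4%. These 4 genes sit together on chromosome 7 in the order Saa3, Gm31882, Saa4, Saa-ps, Saa1 and Saa2, where Saa-ps is a pseudogene.

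**Figure D1:**
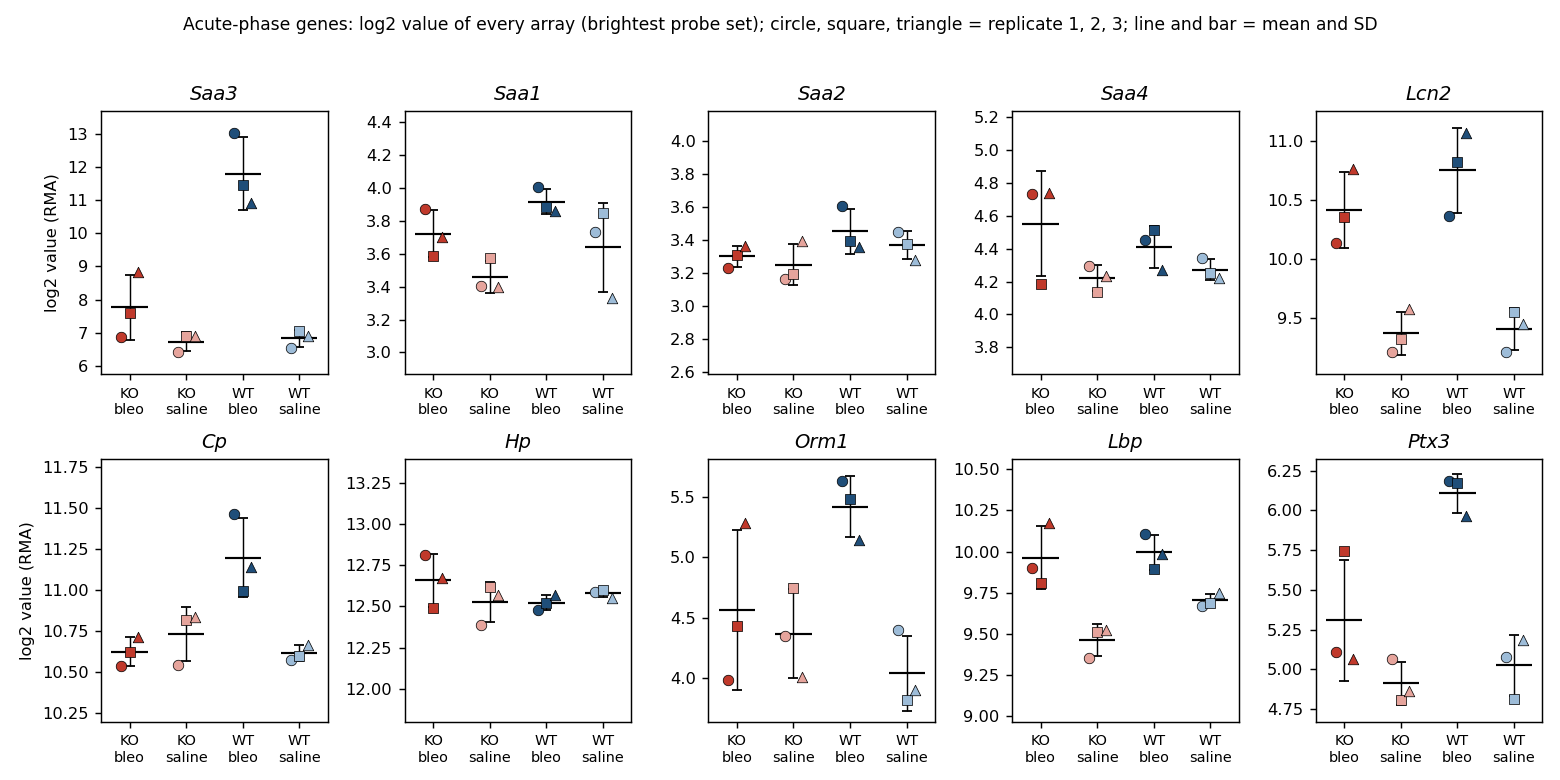
Log2 value (RMA) of the brightest probe set of each of the 10 acute-phase genes on every array, by group, with replicates 1, 2 and 3 as circle, square and triangle and with mean and SD. Each panel has its own vertical range, so heights cannot be compared between genes. The 3 wild-type bleomycin arrays of Saa3 lie between 10.91 and 13.03, above all other arrays, which reach at most 8.83.

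Saa3, the serum amyloid A that mice express mainly outside the liver, moved most of the 10 genes. It stood at 6.88, 7.58 and 8.83 in knockout bleomycin lungs and at 6.42, 6.89 and 6.89 in knockout saline lungs. It stood at 13.03, 11.47 and 10.91 in wild-type bleomycin lungs and at 6.53, 7.05 and 6.90 in wild-type saline lungs. Every wild-type bleomycin array was thus above every other array, while the knockout bleomycin arrays overlapped the knockout saline arrays. In wild-type lungs Saa3 rose by 4.97 ± 0.50 log2 (SE), which is 31.4-fold (95% interval 14.9 to 66.1, limma adjusted p = 1.44e-05) and ranked 2 of 2428 genes called higher. In knockout lungs the change was 1.03 ± 0.50 log2 with an interval of -0.04 to 2.10 (limma adjusted p = 0.297). The knockout response was 3.94 log2 smaller than the wild-type response (difference -3.94 ± 0.70, interval -5.46 to -2.43, limma adjusted p = 0.00884). That difference ranked 2 of 545 genes called lower by size. Since these are whole-lung RNA samples, fewer cells that express Saa3 and less Saa3 RNA per cell cannot be told apart.

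The highest knockout bleomycin value of Saa3 came from replicate 3, and without that array the knockout change was 0.50 log2 (limma adjusted p = 0.696). The highest wild-type value, 13.03, came from replicate 1 and was close to the top of the arrays, where the brightest probe set reached 14.06 to 14.24. Leaving out any array kept the wild-type rise between 4.36 and 5.42 log2 and the difference between responses between -4.48 and -3.33, each still called.

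Saa1 and Saa2, the serum amyloid A proteins that the liver releases in large amounts in an acute-phase response, were dim on every array. The brighter Saa1 probe set read 3.87, 3.59 and 3.70 in knockout bleomycin lungs, 3.40, 3.57 and 3.40 in knockout saline lungs, 4.0, 3.89 and 3.86 in wild-type bleomycin lungs, and 3.73, 3.85 and 3.33 in wild-type saline lungs. These values lay between the 12.6 and 28.8 percentiles of all probe sets, and the Saa2 probe set lay between 8.4 and 20.4. Within each genotype the bleomycin arrays of the brighter Saa1 probe set were all above the saline arrays, by margins of no more than a few hundredths of a log2 unit. No change was called (0.26 log2 in knockout lungs, limma adjusted p = 0.282, and 0.28 log2 in wild-type lungs, limma adjusted p = 0.112). The dimmer Saa1 probe set changed by 0.12 log2 in knockout and 0.09 log2 in wild-type lungs. Its groups overlapped, and neither change was called. Saa2 changed by 0.05 log2 in knockout lungs (limma adjusted p = 0.832) and by 0.08 log2 in wild-type lungs (limma adjusted p = 0.537), and its groups overlapped.

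The array annotation assigns the brighter Saa1 probe set to Saa1, but its target accession is a RefSeq transcript of Saa2, and the name marks it as shared by several transcripts. Saa1 and Saa2 are near-identical in sequence, so their signals cannot be separated with certainty. Saa4, the constitutive member of the family, has 2 probe sets, and the brighter had values between the 31.1 and 39.6 percentiles. It read 4.73, 4.19 and 4.74 in knockout bleomycin lungs and 4.30, 4.14 and 4.23 in knockout saline lungs, against 4.45, 4.51 and 4.27 in wild-type bleomycin lungs and 4.35, 4.25 and 4.22 in wild-type saline lungs. The bleomycin and saline values of Saa4 overlapped in both genotypes, and no change was called (0.33 log2 in knockout lungs, limma adjusted p = 0.195, and 0.14 log2 in wild-type lungs, limma adjusted p = 0.465). Detection calls were not used here, so the Saa1, Saa2 and Saa4 signals cannot be set apart from background.

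Lcn2 encodes lipocalin 2, which binds the iron-carrying siderophores of bacteria and is made by epithelial cells, macrophages and neutrophils. It stood at 10.13, 10.36 and 10.77 in knockout bleomycin lungs, against 9.21, 9.32 and 9.57 in knockout saline lungs. It stood at 10.36, 10.82 and 11.07 in wild-type bleomycin lungs, against 9.21, 9.55 and 9.45 in wild-type saline lungs. The bleomycin arrays were above the saline arrays in both genotypes, and the bleomycin arrays of the genotypes overlapped. Lcn2 rose 2.07-fold in knockout lungs (1.05 ± 0.19 log2, limma adjusted p = 0.00982) and 2.54-fold in wild-type lungs (1.35 ± 0.19 log2, limma adjusted p = 0.000165). The knockout response minus the wild-type response was -0.30 ± 0.26 log2 with a 95% interval of -0.87 to 0.27 (limma adjusted p = 0.550). That interval lies wholly above the one for Saa3, and it holds both an equal response and a knockout response smaller by up to 0.87 log2.

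Cp encodes ceruloplasmin, the copper-carrying ferroxidase of plasma, and has 8 probe sets. The brightest read 10.54, 10.62 and 10.72 in knockout bleomycin lungs and 10.54, 10.82 and 10.84 in knockout saline lungs. It read 11.46, 10.99 and 11.14 in wild-type bleomycin lungs and 10.58, 10.60 and 10.67 in wild-type saline lungs. The knockout groups overlapped, and the wild-type bleomycin arrays were above all other arrays. Cp rose 1.5-fold in wild-type lungs (0.58 ± 0.12 log2, limma adjusted p = 0.00226), while the knockout change was -0.11 ± 0.12 log2 (limma adjusted p = 0.689). The difference between responses was -0.69 ± 0.16 log2 with an interval of -1.05 to -0.34 (limma adjusted p = 0.0326). This call was close to the threshold and was lost without wild-type saline replicate 1 or 2, knockout saline replicate 2 or 3, or knockout bleomycin replicate 1 or 2, left out in turn (limma adjusted p up to 0.0831).

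The other Cp probe sets gave the same picture except for 2. In a fit over all 34958 probe sets with 1 gene, 6 of the 8 were called higher in wild-type lungs, where 21.4% of all probe sets were called in either direction. Their changes ran from 0.45 to 1.41 log2. None of the 8 was called in knockout lungs by limma, and 0 had an unadjusted p under 0.05, where 1.61% of all probe sets were called. The Cp changes in knockout lungs ran from -0.18 to 0.04 log2. The exceptions were 1448735_at, with -0.02 log2 in wild-type lungs, and 1417497_at, with -0.19 log2. The difference between responses was called for 2 of 8, against 2.44% of all probe sets. These were 1455393_at, with -0.90 log2 (limma adjusted p = 0.0359), and 1441326_at, with -1.44 log2 (limma adjusted p = 0.0288).

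**Figure D2:**
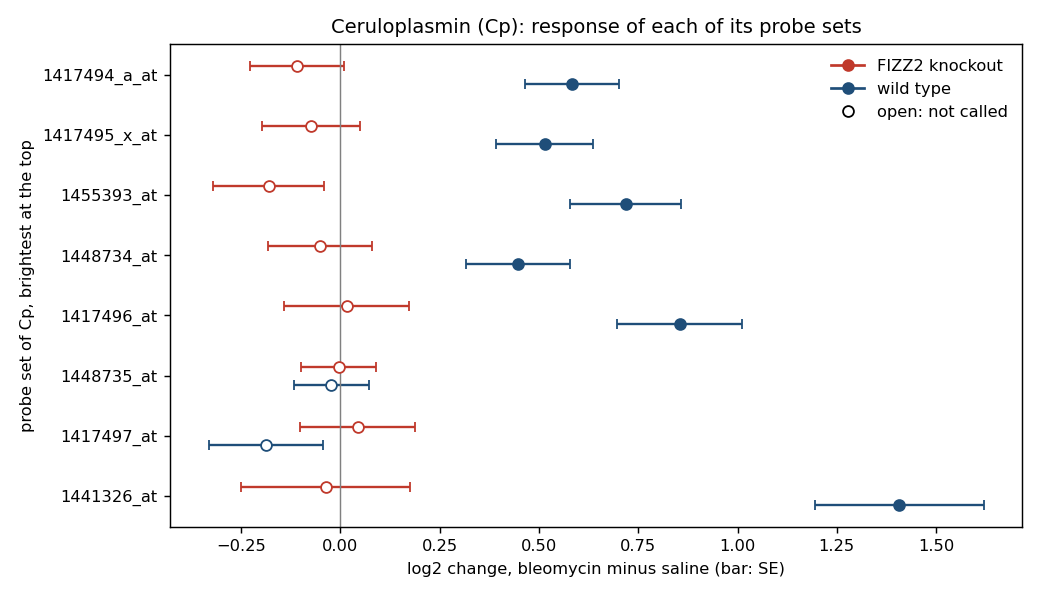
Log2 change, bleomycin minus saline, of each of the 8 probe sets of Cp in FIZZ2 knockout (red) and wild-type (blue) lungs, brightest at the top, with the SE of the fit over all probe sets. Filled points were called. The knockout changes all lie between -0.18 and 0.04, and 6 wild-type changes lie between 0.45 and 1.41.

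Orm1 encodes alpha-1-acid glycoprotein, a plasma carrier of lipophilic compounds. It was dim, with 3.98, 4.43 and 5.29 in knockout bleomycin lungs and 4.34, 4.75 and 4.01 in knockout saline lungs, against 5.64, 5.49 and 5.14 in wild-type bleomycin lungs and 4.39, 3.82 and 3.90 in wild-type saline lungs. The knockout groups overlapped and the wild-type groups did not. The wild-type saline level lay at the 28.5 percentile of all probe sets and cannot be set apart from background, so the changes of Orm1 are changes of intensity and may understate those of its RNA. Orm1 rose in wild-type lungs (1.39 ± 0.28 log2, limma adjusted p = 0.00273) and changed by 0.20 ± 0.28 log2 in knockout lungs (limma adjusted p = 0.777). The difference of -1.19 ± 0.40 log2 (interval -2.06 to -0.32) was not called (limma adjusted p = 0.107). Replicate 3 was the knockout bleomycin array nearest to wild type, and without it the difference was -1.55 log2 and was called (limma adjusted p = 0.0177).

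Ptx3 encodes pentraxin 3, a long pentraxin that binds microbes and complement and is made locally by myeloid, endothelial and stromal cells. It stood at 5.11, 5.74 and 5.07 in knockout bleomycin lungs and at 5.06, 4.81 and 4.86 in knockout saline lungs. It stood at 6.19, 6.17 and 5.97 in wild-type bleomycin lungs and at 5.08, 4.81 and 5.19 in wild-type saline lungs. All wild-type bleomycin arrays were above all others, and the knockout bleomycin arrays were above the knockout saline arrays by a narrow margin. Ptx3 rose 2.12-fold in wild-type lungs (1.08 ± 0.16 log2, limma adjusted p = 0.000281), while the knockout change of 0.40 ± 0.16 log2 was not called (limma adjusted p = 0.209). The difference was -0.69 ± 0.23 log2 (interval -1.18 to -0.20, limma adjusted p = 0.0996), and it was called without knockout bleomycin replicate 2 (-0.90 log2, limma adjusted p = 0.0154). The dimmer Ptx3 probe set changed by 0.23 log2 in wild-type lungs in the fit over all probe sets and was not called (limma adjusted p = 0.117).

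Lbp encodes the lipopolysaccharide-binding protein, which hands lipopolysaccharide to CD14. It stood at 9.90, 9.81 and 10.18 in knockout bleomycin lungs, against 9.35, 9.51 and 9.52 in knockout saline lungs. It stood at 10.11, 9.90 and 9.99 in wild-type bleomycin lungs, against 9.67, 9.69 and 9.75 in wild-type saline lungs. The bleomycin arrays were above the saline arrays in both genotypes, and the saline arrays of knockout lungs were all below those of wild-type lungs. Lbp rose 1.41-fold in knockout lungs (0.50 ± 0.10 log2, limma adjusted p = 0.0172) and 1.23-fold in wild-type lungs (0.29 ± 0.10 log2, limma adjusted p = 0.0410). The difference of 0.21 ± 0.14 log2 had an interval of -0.10 to 0.51 (limma adjusted p = 0.422). The wild-type call was lost without any 1 of the wild-type saline arrays, wild-type bleomycin replicate 1 or 3, or knockout saline replicate 2 or 3 (limma adjusted p up to 0.134). The knockout call was lost without knockout saline replicate 1 or 2 or knockout bleomycin replicate 3 (limma adjusted p up to 0.0794). These values are from the brighter of 2 Lbp probe sets. The dimmer changed by 0.24 log2 in knockout and 0.05 log2 in wild-type lungs in the fit over all probe sets. Neither change was called (limma adjusted p = 0.247 and 0.779). In that fit the brighter was called in knockout lungs (limma adjusted p = 0.0314) but not in wild-type lungs (limma adjusted p = 0.0559).

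Hp encodes haptoglobin, which binds free haemoglobin. Its signal was among the brightest on the arrays, between the 99.4 and 99.7 percentiles. It read 12.81, 12.49 and 12.67 in knockout bleomycin lungs and 12.39, 12.62 and 12.57 in knockout saline lungs, against 12.48, 12.52 and 12.57 in wild-type bleomycin lungs and 12.59, 12.60 and 12.55 in wild-type saline lungs. All 4 groups overlapped. The change was 0.13 ± 0.09 log2 in knockout lungs (interval -0.06 to 0.33, limma adjusted p = 0.486) and -0.06 ± 0.09 log2 in wild-type lungs (interval -0.25 to 0.14, limma adjusted p = 0.680).

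**Figure D3:**
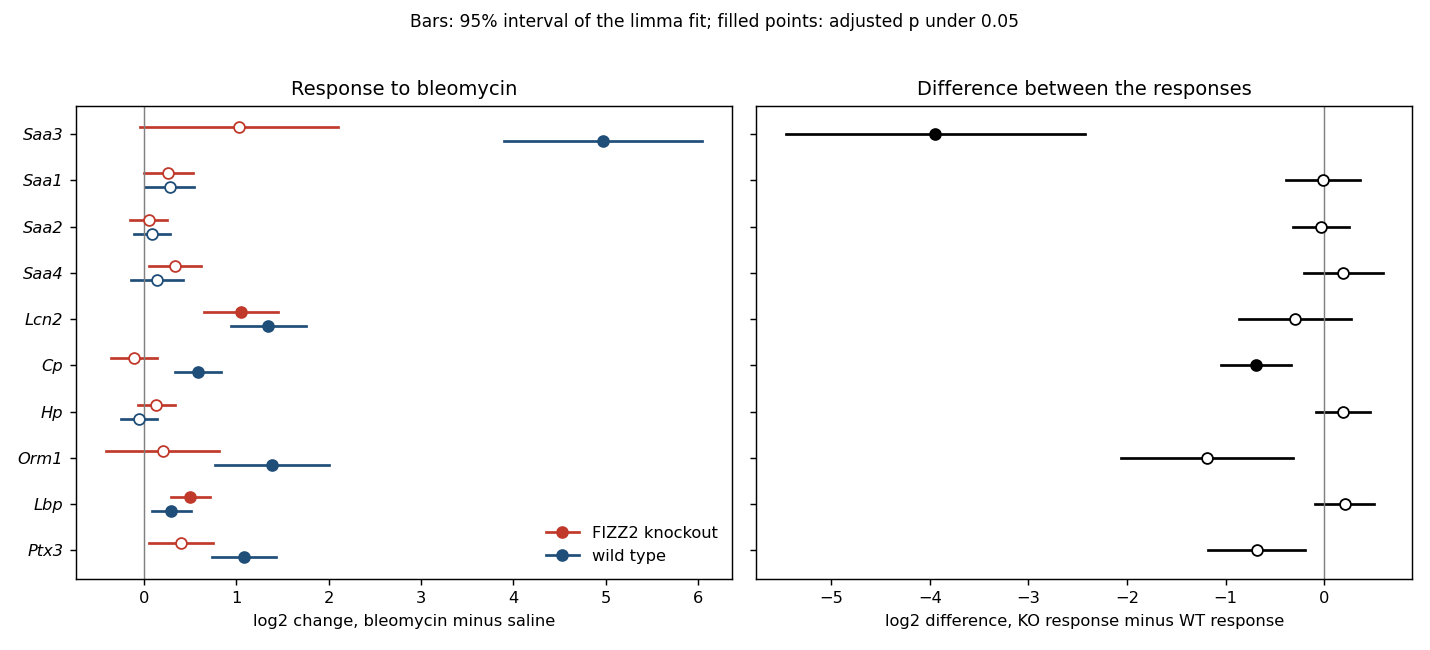
Left, log2 change, bleomycin minus saline, of the 10 acute-phase genes in FIZZ2 knockout (red) and wild-type (blue) lungs; right, knockout response minus wild-type response. Bars are 95% intervals of the limma fit and filled points have an adjusted p under 0.05. In wild-type lungs 6 genes were called, and 2 in knockout lungs; only the right-hand points of Saa3 and Cp are filled.

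Over the 10 genes, Saa3, Lcn2, Orm1, Ptx3, Cp and Lbp rose in wild-type lungs and none fell, where 13.3% of all genes tested were called higher. The bleomycin arrays lay wholly above the saline arrays for 7 of the 10, against 17.2% of all genes. In knockout lungs Lcn2 and Lbp rose and none fell, where 1.98% of all genes were called higher, and the arrays lay wholly above for 4 of the 10, against 15.2%. The 10 genes were chosen with earlier results of these data known, so these counts describe them and carry no test. The median change of the 10 was 0.30 log2 in knockout lungs and 0.44 log2 in wild-type lungs, against 0.01 and -0.04 over all genes tested. The difference between responses was called for Saa3 and Cp, both lower in knockout lungs, where 5.02% of all genes were called in either direction. For Orm1 and Ptx3 the interval of the difference lay below 0 but the adjusted p missed the threshold. For Lcn2, Lbp, Hp, Saa1, Saa2 and Saa4 the interval included 0.

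Compared directly after bleomycin, 3 of the 10 genes were lower in knockout than in wild-type lungs, where 7.89% of all genes were called lower. The same 3 had knockout arrays wholly below the wild-type arrays, against 15.4% of all genes. Saa3 was 16.4-fold lower (-4.04 ± 0.50 log2, limma adjusted p = 0.000236), and it ranked 1 of 1435 genes called lower by size. Ptx3 was 1.74-fold lower (-0.80 ± 0.16 log2, limma adjusted p = 0.00506), and Cp was 1.49-fold lower (-0.57 ± 0.12 log2, limma adjusted p = 0.00532). Orm1 was 0.86 log2 lower, which was not called (limma adjusted p = 0.0597), and its arrays overlapped through knockout bleomycin replicate 3. Lcn2 differed by -0.33 ± 0.19 log2 (interval -0.73 to 0.07, limma adjusted p = 0.263). This comparison uses the same bleomycin arrays as the responses above and is not separate evidence.

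After saline none of the 10 genes was called between knockout and wild-type lungs by limma, where 0.489% of all genes were called. At an unadjusted p under 0.05 there was 1, Lbp, with -0.24 log2 (limma adjusted p = 0.432), and its knockout arrays lay wholly below, as they did for 9.45% of all genes. Saa3 differed by -0.09 log2 after saline (interval -1.17 to 0.98).

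The spread within the bleomycin groups was uneven. Saa3 had an SD of 0.99 in knockout bleomycin and 1.10 in wild-type bleomycin lungs, against 0.27 in knockout saline and 0.27 in wild-type saline lungs. Knockout bleomycin replicate 3 had the highest Saa3, Lcn2, Orm1, Cp and Lbp values of its group, while replicate 2 had the highest Ptx3. In wild-type bleomycin lungs replicate 1 had the highest Saa3, Cp, Orm1, Lbp and Ptx3 but the lowest Lcn2. Lcn2 thus did not follow Saa3 among the wild-type bleomycin arrays.

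**Figure D4:**
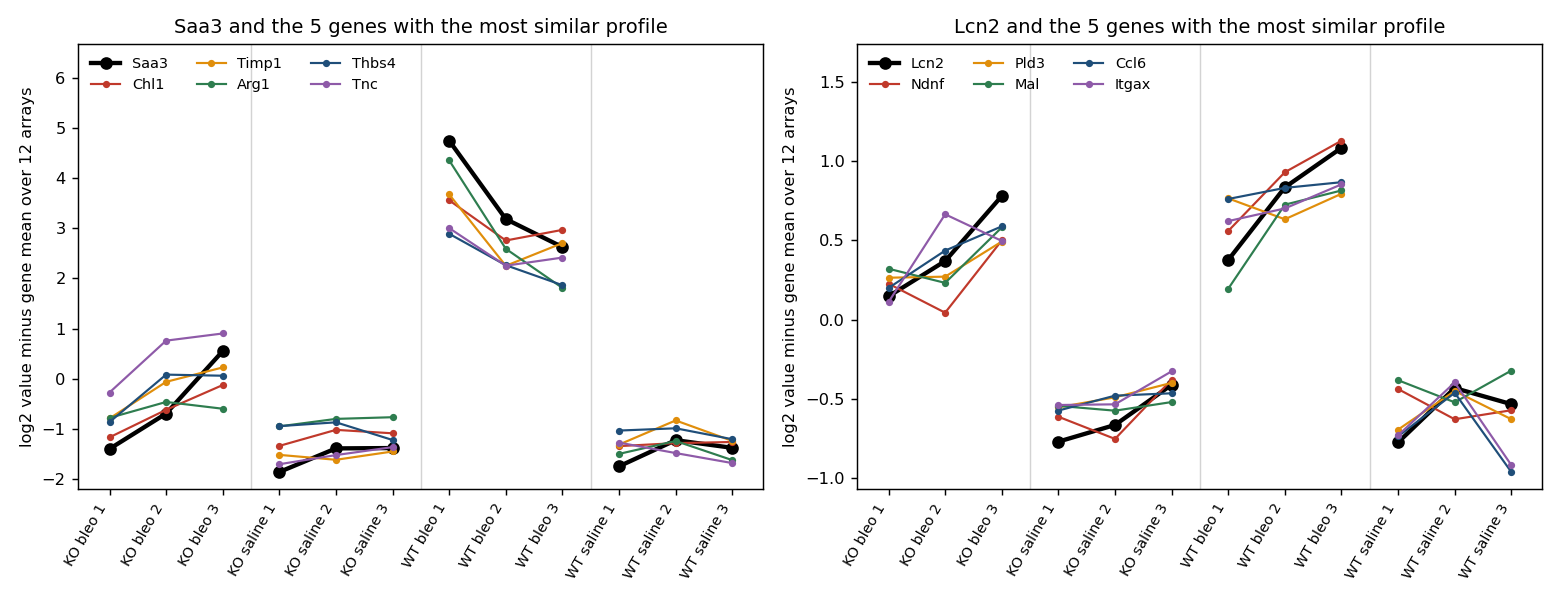
Log2 value minus the gene's mean over the 12 arrays, by array, for Saa3 (left, black) and Lcn2 (right, black) with the 5 genes whose profiles lay nearest. Lines join the arrays of 1 group only to guide the eye, since replicates have no order. The Saa3 set is highest in the wild-type bleomycin arrays, though Tnc and Timp1 were also 2.0 and 1.32 log2 above knockout saline in knockout bleomycin lungs, and the Lcn2 set is high in the bleomycin arrays of both genotypes.

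Genes whose profile lay nearest were found by the root mean square difference of centred log2 values over the 12 arrays. For Saa3 these were Chl1 (0.492), Timp1 (0.535), Arg1 (0.620), Thbs4 (0.803) and Tnc (0.811). Their changes ran from 0.23 to 2.0 log2 in knockout lungs and from 3.42 to 4.39 log2 in wild-type lungs. For Lcn2 the nearest were Ndnf (0.188), Pld3 (0.199), Mal (0.201), Ccl6 (0.204) and Itgax (0.210). Their changes ran from 0.82 to 0.93 log2 in knockout lungs and from 0.99 to 1.54 log2 in wild-type lungs. The 2 sets share no gene. Since the genes were picked for their likeness, these values describe them and carry no test.

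Other positive acute-phase genes and the cytokine pathway that induces them were read from lists. Of 27 other positive acute-phase genes 23 were measured, of which 10 had a mean under 5. In knockout lungs 1 rose and 1 fell, against 1.98% and 1.29% of all genes. The count of rises was 3 without wild-type bleomycin replicate 1 and 4 without knockout bleomycin replicate 1. In wild-type lungs 11 rose and 2 fell, against 13.3% and 14.4% of all genes. The median change was 0.11 log2 in knockout lungs and 0.38 log2 in wild-type lungs. Il1rn, the interleukin 1 receptor antagonist, rose by 0.83 log2 in knockout lungs (limma adjusted p = 0.0105) and by 1.87 log2 in wild-type lungs (limma adjusted p = 2.7e-06). The zinc and iron transporter gene Slc39a14, the metallothionein gene Mt2 and the serine protease inhibitor gene Serpina3n rose in wild-type lungs by 1.71, 2.56 and 1.89 log2 and were not called in knockout lungs. Hamp, which encodes the iron hormone hepcidin, changed by -1.59 log2 in knockout lungs and fell by 2.83 log2 in wild-type lungs. The knockout call of Hamp (limma adjusted p = 0.0423) was lost, and the count of falls by limma was 0 (1 at an unadjusted p under 0.05), without any 1 of 9 arrays, which were all but wild-type bleomycin replicate 1, knockout saline replicate 1 and knockout bleomycin replicate 3. The knockout response was lower than the wild-type response for 4 of the 23, with -1.35 log2 for Slc39a14 (limma adjusted p = 0.00669) and -1.61 log2 for Serpina3n (limma adjusted p = 0.00825). It was higher for 1 of them, Itih4, named after its value was seen, with -0.03 log2 in knockout and -1.15 log2 in wild-type lungs (difference 1.12 log2, limma adjusted p = 0.0125). Of 10 measured negative acute-phase genes, which the liver lowers during inflammation, none was called in knockout lungs by limma and 0 had an unadjusted p under 0.05. In wild-type lungs 1 rose and 2 fell, which lies near the 13.3% and 14.4% of all genes. Of these 10 genes, 7 had a mean under 5.

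**Figure D5:**
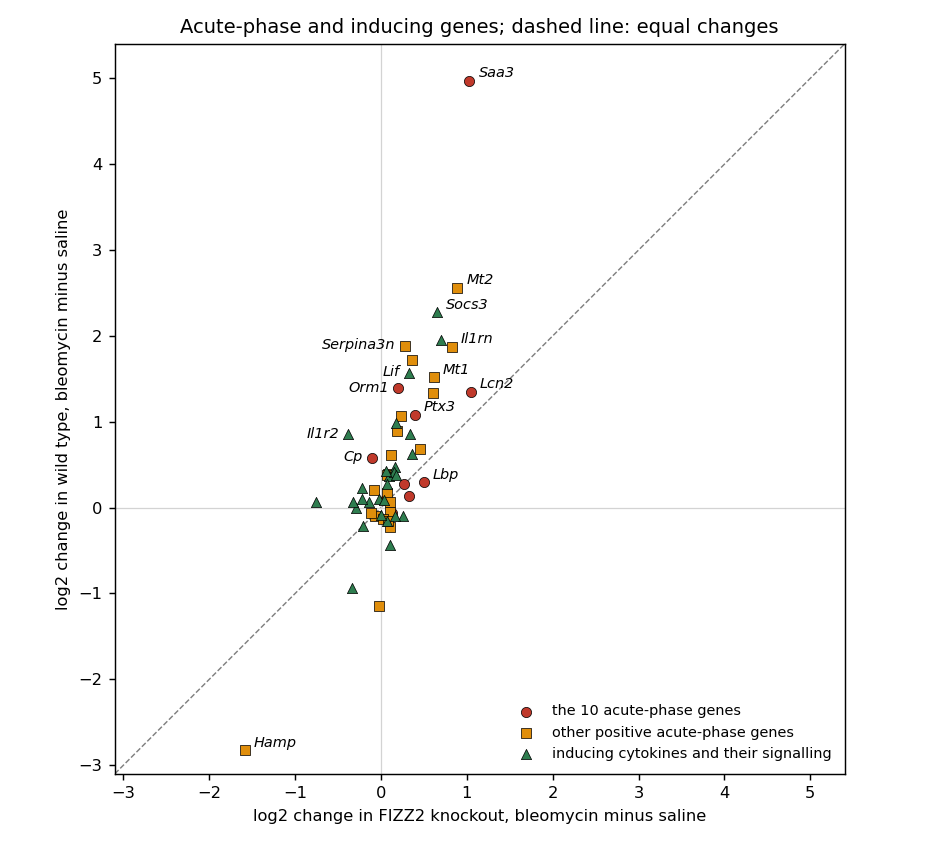
Log2 change, bleomycin minus saline, in FIZZ2 knockout lungs (horizontal) against wild-type lungs (vertical) for the 10 acute-phase genes (red circles), 23 other positive acute-phase genes (orange squares) and 28 genes of inducing cytokines and their signalling (green triangles). Points above the dashed line had a higher log2 change in wild-type lungs. Saa3 lies at 1.03 and 4.97, and Lcn2 and Lbp lie near the line.

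Of 28 measured genes of the inducing cytokines and their signalling, none was called in knockout lungs by limma (9 at an unadjusted p under 0.05), while 10 rose and 2 fell in wild-type lungs. Among all genes 1.98% rose and 1.29% fell in knockout lungs, and 13.3% rose and 14.4% fell in wild-type lungs. Lif, an interleukin 6 family cytokine, changed by 0.32 log2 in knockout lungs and rose by 1.57 log2 in wild-type lungs (difference -1.25 log2, limma adjusted p = 0.00398). Socs3, a feedback inhibitor induced by STAT3, changed by 0.65 log2 in knockout lungs and rose by 2.27 log2 in wild-type lungs (difference -1.62 log2, limma adjusted p = 0.00698). Il1r1, the interleukin 1 receptor, changed by 0.17 log2 in knockout lungs and rose by 0.99 log2 in wild-type lungs (difference -0.82 log2, limma adjusted p = 0.00669). Il6 and Il1b were added after their values were seen, as the best known inducers. Il6 was dim and changed by 0.70 log2 in knockout lungs (limma adjusted p = 0.409) and rose by 1.96 log2 in wild-type lungs (limma adjusted p = 0.00325). Its difference of -1.26 log2 was not called (limma adjusted p = 0.232), though it was without knockout bleomycin replicate 3 (-1.87 log2, limma adjusted p = 0.0133). Il1b changed by -0.76 log2 in knockout lungs (limma adjusted p = 0.0973) and by 0.06 log2 in wild-type lungs (limma adjusted p = 0.867), and neither was called. Without knockout bleomycin replicate 3 the knockout change was called (-1.03 log2, limma adjusted p = 0.0336), as was the difference (-1.09 log2, limma adjusted p = 0.0429). Compared directly after bleomycin, Il1b was 0.71 log2 higher in knockout than in wild-type lungs. That was not called in the main fit. It was called with genes under a mean of 5 left out (limma adjusted p = 0.0493) and under several other alternatives. Il1b was 1.53 log2 higher in knockout than in wild-type lungs after saline (limma adjusted p = 0.0111), a call lost without knockout saline replicate 3 (1.31 log2, limma adjusted p = 0.0506). On the same saline arrays 5 of 15 neutrophil markers were called higher in knockout lungs, and their part in the Il1b difference was not tested.

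Among 21 measured receptors and binding partners of these proteins, 1 rose and 1 fell in knockout lungs, where 1.98% of all genes rose and 1.29% fell. In wild-type lungs 10 rose and 2 fell, where 13.3% of all genes rose and 14.4% fell. Scarb1, a lipoprotein receptor that also binds serum amyloid A, changed by 0.38 log2 in knockout lungs and rose by 1.24 log2 in wild-type lungs (difference -0.85 log2, limma adjusted p = 0.00757). Tlr2 and Ly96, which sense bacterial products, rose in wild-type lungs by 1.25 and 0.67 log2. Of 20 measured iron handling genes 1 rose and 1 fell in knockout lungs, and 8 rose and 3 fell in wild-type lungs, against the same shares of all genes. The fall in knockout lungs was Hamp, which is also in the list of other positive acute-phase genes. Slc40a1, the iron exporter ferroportin, changed by -0.16 log2 in knockout lungs and rose by 1.24 log2 in wild-type lungs (difference -1.40 log2, limma adjusted p = 0.0131). Bmp6, an inducer of hepcidin, changed by -0.46 log2 in knockout lungs and fell by 1.36 log2 in wild-type lungs (difference 0.90 log2, limma adjusted p = 0.0122).

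Markers of cells that can make these proteins were read on the same arrays. Hepatocyte markers were low, with 13 of 14 measured genes under a mean of 5 and array means of 3.82 to 4.01 over all 12 arrays. Neutrophil markers had array means of 6.36 to 6.60 in knockout bleomycin, 6.61 to 7.22 in knockout saline, 6.35 to 6.86 in wild-type bleomycin and 6.21 to 6.38 in wild-type saline lungs. Of 15 measured neutrophil markers 1 rose and 4 fell in knockout lungs, where 1.98% of all genes rose and 1.29% fell. In wild-type lungs 4 rose and 4 fell, where 13.3% of all genes rose and 14.4% fell. The calprotectin gene S100a9 fell by 1.53 log2 in knockout and by 1.43 log2 in wild-type lungs. The collagenase gene Mmp8 changed by -0.30 log2 in knockout lungs (limma adjusted p = 0.234) and rose by 1.24 log2 in wild-type lungs (limma adjusted p = 1.83e-05). The surface marker gene Cd177 changed by 0.82 log2 in knockout lungs (limma adjusted p = 0.574) and rose by 3.46 log2 in wild-type lungs (limma adjusted p = 0.00171). Lrg1, a secreted glycoprotein of neutrophils and other cells, rose by 1.18 log2 in knockout and by 1.91 log2 in wild-type lungs. After saline 5 of the 15 neutrophil markers were higher in knockout than in wild-type lungs by limma (median 0.60 log2), against 0.489% of all genes called in either direction. That count fell to 3 without wild-type saline replicate 2, to 1 without wild-type saline replicate 3 or knockout saline replicate 1, and to 0 by limma without knockout saline replicate 3 (5 at an unadjusted p under 0.05).

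Macrophage and monocyte markers had array means of 8.48 to 8.65 in knockout bleomycin, 8.03 to 8.11 in knockout saline, 8.65 to 8.93 in wild-type bleomycin and 7.76 to 8.03 in wild-type saline lungs. Of the 16 measured 6 rose and none fell in knockout lungs, where 1.98% of all genes rose and 1.29% fell. In wild-type lungs 10 rose and 1 fell, where 13.3% of all genes rose and 14.4% fell. Gpnmb rose by 2.28 log2 in knockout and by 2.84 log2 in wild-type lungs, and Cd68 rose by 1.14 log2 in knockout and by 2.16 log2 in wild-type lungs. The knockout response was lower than the wild-type response for 6 of the 16 and higher for 1 (median difference -0.53 log2), against 5.02% of all genes called in either direction, with -1.02 log2 for Cd68 (limma adjusted p = 0.0048) and -0.80 log2 for Mrc1 (limma adjusted p = 0.0125). The count of 6 was 3 without any 1 of wild-type saline replicate 1 or 3, wild-type bleomycin replicate 2, knockout saline replicate 1 or 2, or knockout bleomycin replicate 1. The part of any of these cells in the change of Saa3 or Lcn2 was not tested.

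Fibroblast markers had 3 rises and no fall in knockout lungs and 6 rises and 4 falls in wild-type lungs among 13. The counts of these structural cell lists stand against 13.3% of all genes called higher and 14.4% called lower in wild-type lungs. In knockout lungs the shares were 1.98% and 1.29%. Of 12 alveolar type 2 markers none was called in knockout lungs by limma (4 at an unadjusted p under 0.05), and 1 rose and 6 fell in wild-type lungs (3 without wild-type saline replicate 1 or 2). Their array means were 12.44 to 12.54 in knockout bleomycin, 12.24 to 12.33 in knockout saline, 11.56 to 12.24 in wild-type bleomycin and 12.37 to 12.38 in wild-type saline lungs. Of 14 airway secretory markers, a list that includes Cp itself, none was called in knockout lungs by limma (3 at an unadjusted p under 0.05), and 1 rose and 7 fell in wild-type lungs (4 without wild-type saline replicate 1). Of 11 mesothelial markers none was called in knockout lungs by limma (0 at an unadjusted p under 0.05), and 1 rose and 3 fell in wild-type lungs, which lies near the shares of all genes. Lung identity markers were bright, with Sftpc at 14.22 ± 0.02 in knockout bleomycin, 14.18 ± 0.01 in knockout saline, 14.08 ± 0.09 in wild-type bleomycin and 14.20 ± 0.04 in wild-type saline lungs. Sftpc was not called in either genotype. Of the 8 lung identity markers none was called in knockout lungs by limma (1 at an unadjusted p under 0.05). In wild-type lungs 3 of the 8 fell and none rose, against 14.4% and 13.3% of all genes.

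Tissue that can be carried along with lung also differed between the arrays. Cardiac muscle markers fell for 2 of 12 in knockout lungs, against 1.29% of all genes, and for 10 of 12 without knockout bleomycin replicate 3. In wild-type lungs these markers fell for 12 of 12, against 14.4% of all genes. Their array means were 6.64, 7.67 and 8.68 in knockout bleomycin lungs, against 8.44, 9.07 and 8.98 in knockout saline lungs, and 6.63, 6.62 and 7.23 in wild-type bleomycin lungs, against 8.40, 8.41 and 8.89 in wild-type saline lungs. Adipocyte markers averaged 6.03, 6.07 and 7.30 in knockout bleomycin lungs, against 7.80, 7.81 and 7.08 in knockout saline lungs, and 6.20, 6.16 and 6.17 in wild-type bleomycin lungs, against 7.29, 6.5 and 7.46 in wild-type saline lungs. Apart from knockout bleomycin replicate 3, the bleomycin arrays of both genotypes had lower adipocyte marker means than every saline array. Within the knockout bleomycin group replicate 3 had the highest cardiac and adipocyte means and the highest Saa3, Lcn2, Orm1, Cp and Lbp. The part of carried-along tissue in these values, and in the fall of Hamp, was not tested. Without knockout bleomycin replicate 3 the Saa3 difference between knockout and wild-type lungs after bleomycin was -4.57 against -4.04 log2 with it (limma adjusted p = 0.000142). Leaving out the highest Saa3 value of the knockout group had to widen that difference, so this is no test of carried-along tissue.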

How the data were processed

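Whole-lung total RNA from 12 samples was hybridized as biotin-labelled cRNA, with 1 Affymetrix array for each. The authors deposited RMA log2 values, 1 for every probe set on every array. The tools affy, RMA and limma are named in the submitters' processing notes, but no version is. RMA by its definition brings all arrays to 1 distribution, and the number of arrays limits the precision. Of 45101 probe sets, 34958 had 1 gene in the annotation, 932 several and 9211 none; 34754 matched the GRCm38.p6 gene table by Entrez identifier. Each of 18194 genes was represented by its brightest probe set over the 12 arrays (9012 genes had more than 1).

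A limma model with group means and no block was fitted to all 12 arrays in R 4.3.3 (limma 3.58.1, with statmod 1.5.0 installed for its alternatives). Variances were moderated by eBayes without a trend, on 8 residual degrees of freedom and a prior of 4.86. Adjusted p-values are Benjamini-Hochberg over all genes, two-sided, with calls under 0.05; intervals are 95%. The fit was tested on simulated data. A second fit took all probe sets with 1 gene. Alternatives were another summary of probe sets, a filter at a mean of 5, 2 rescalings, other variance settings, the replicate block, and each array left out. Figures used matplotlib 3.10.9 in Python 3.11.15.

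The members and lists were chosen with earlier results of these data known. Named were all members, from each other list the 4 smallest p in wild type and the smallest for the difference, the brightest cell marker, and the 5 nearest profiles of Saa3 and Lcn2. Promoter windows came from RefSeq, and motifs were matched by letters.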

Additional observations from a re-analysis of the deposited data

Results flagged for a closer look

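For 2 of the 10 acute-phase genes the response to bleomycin differed between knockout and wild-type lungs by the limma test of the difference itself, where 5.02% of all genes were called. The knockout response minus the wild-type response was -3.94 log2 for Saa3 (adjusted p = 0.00884) and -0.691 log2 for Cp (adjusted p = 0.0326). The same test called named genes of the other lists. Some of these were named for a small p in this very test, and Itih4 after its value was seen, so their calls are partly built in. Named genes that were not called, such as Il6, Il1b and Rbp4, are left out below. Among other acute-phase genes it was -1.05 for Il1rn, -1.35 for Slc39a14, -1.67 for Mt2, -1.61 for Serpina3n, 1.12 for Itih4 and 0.646 for Alb (mean under 5). Among inducing cytokines and their signalling it was -1.25 for Lif, -1.62 for Socs3, -0.817 for Il1r1 and -0.522 for Osmr. Among receptors and iron handling genes it was -0.851 for Scarb1, -0.803 for Tlr2, -0.445 for Ly96, -1.4 for Slc40a1, 0.897 for Bmp6 and -1.1 for Slc11a1. Of these, the calls of Cp, Mt2, Alb, Osmr, Tlr2 and Ly96 were lost when at least 1 array was left out (Cp without 6 of the 12 arrays in turn), and that of Il1rn with the mean of all probe sets (adjusted p = 0.069).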

How the results depend on the processing

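The 10 genes gave 50 results in 5 comparisons, of which 13 were called. Under 21 alternatives 10 of these kept their call, and none of the 50 changed direction while called. The exceptions were Lbp in each genotype and the Cp difference. Of the 37 results not called, 31 were not called under any alternative. Those that gained a call were the difference and the comparison after bleomycin for Orm1, without knockout bleomycin replicate 3 (-1.55 and -1.22 log2, adjusted p = 0.0177 and 0.00547), the Ptx3 difference, with the mean of all probe sets (-0.45 log2, adjusted p = 0.0496) or without knockout bleomycin replicate 2, Saa1 in wild-type lungs, without wild-type saline replicate 2 (0.38 log2, adjusted p = 0.0381), and Saa4 in knockout lungs and after bleomycin, without knockout bleomycin replicate 2 (0.52 and 0.33 log2, adjusted p = 0.0218 and 0.0407). The cause was not tested.

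With 1 array left out at a time, the number of the 10 genes called ran from 1 to 3 in knockout lungs (2 with all arrays), from 5 to 6 in wild-type lungs (6) and from 1 to 3 for the difference (2). It was 3 or 4 after bleomycin (3) and 0 after saline. The difference was called for 1 gene, Saa3, with all probe sets tested (Cp adjusted p = 0.0520), with array medians subtracted (Cp adjusted p = 0.0540) and with the replicate block (Cp adjusted p = 0.0572). Lbp in wild-type lungs lost its call with the mean of all probe sets (adjusted p = 0.152), all probe sets tested (0.0559), array medians subtracted (0.0945) and repeated quantile normalization (0.0661). The filter on genes with a mean under 5 removed Saa1, Saa2, Saa4 and Orm1.

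No pairing of the arrays by equal replicate numbers was visible. The labels do not say whether equal numbers share a litter or day, and low correlations cannot exclude it. Deviations from the group means of same-numbered arrays correlated between -0.297 and 0.203, over 0.1 in 2 of 18 pairs. The replicate block gave 1 gene called for the difference and changed no other count of the 10 genes.

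Over all genes, calls in knockout lungs numbered 594, with 1286 under array weights and as few as 211 without 1 array (knockout saline replicate 2). Calls for the difference numbered 914, with 1888 under array weights, 601 with the replicate block and as few as 380 without 1 array (knockout saline replicate 1). After bleomycin 2804 genes were called, against 1863 without wild-type bleomycin replicate 1 and 1653 without knockout bleomycin replicate 1. After saline 89 were called, with 1105 under array weights, 37 with only the groups compared and as few as 24 without 1 array (knockout saline replicate 3).

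The same alternatives were run on the named genes and counts of the other lists, a choice made after seeing the data. With 1 array left out, genes with a lower response in knockout lungs numbered 3 to 7 of the other positive acute-phase genes (4 with all arrays), 3 to 8 of the inducing cytokines and their signalling (5) and 2 to 5 of the receptors and binding partners (5).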
